A study of Thermothelomyces thermophilus ATCC 42464 with 6 samples.

Results

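Of the 2228 genes listed for Myceliophthora thermophila, 162 were strongly raised in a strain lacking Mtclr-2, which is 7.27% of the listed genes. The 162 were chosen by a rule on the deposited FPKM values themselves (fragments per kilobase of transcript per 1000000 mapped fragments): a mean of at least 5 FPKM in the 3 libraries of the deletion strain, and at least 4 times the mean of the 3 wild-type libraries. Of these, 16 were near silent in the wild type, with a mean under 1 FPKM, and 146 were already expressed there. Since both strain means chose the genes, their differences between strains are descriptions, and the count of genes passing a test, given once below beside that of the whole table, supports nothing.

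M. thermophila, labelled Thermothelomyces thermophilus ATCC 42464, is a mould that grows at high temperature and feeds on plant biomass by secreting cell-wall-degrading enzymes. The samples were mycelium of 2 strains, the wild type and ΔMtclr-2, each with 3 libraries. Both strains were grown first in glucose medium, washed, and held for 48 h in liquid medium with 2% (w/v) Avicel, a microcrystalline cellulose. The question of the series is what MtCLR-2 regulates during growth on cellulose. The labels do not say whether the deletion strain is 1 clone, whether a complemented strain was made, or whether replicate libraries are separate cultures, so the spread between them may be technical.

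CLR-2 is a fungal transcription factor with a binuclear zinc cluster, studied most in Neurospora crassa, where it is needed to switch on cellulase genes when the fungus meets cellulose. The genes described here moved in the opposite direction, with higher FPKM where the factor was missing. The gene table used here, NCBI RefSeq for assembly ASM22609v1, gives these 162 genes a locus tag and no product name, so the account below goes by level, ratio, replicate spread and place in the gene order, and gives no role to any of them.

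The table is itself a selection. Its genes all have strain means at least 2-fold apart, with 905 higher in the deletion strain, so the 162 are 17.9% of the higher genes. Mtclr-2 is not named in the table, and its absence from the deletion libraries was not checked here. Depth was estimated roughly from the low FPKM values, at 13.1 to 16.8 M fragments per library. Libraries of 1 strain correlated at 0.9942 or more on the log2(FPKM + 1) scale, and no library stood apart from the others of its strain. Libraries of different strains correlated at 0.8168 or less. That value covers only genes at least 2-fold apart, which lowers it, so nothing is read from it about genes outside the table.

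Together the 162 genes went from a summed level of 4139, 4135 and 4165 FPKM in wild-type libraries 1 to 3 to 28086, 28105 and 28297 FPKM in deletion libraries 1 to 3. The 3 sums of one strain lay far from the 3 of the other, and the sums within a strain differed by under 1 part in 100. The means were 4147 ± 16.1 and 28163 ± 117 FPKM (SD, n = 3), a 6.79-fold difference. Of all FPKM in the table the genes held 2.04% ± 0.004 in the wild type, against 14.2% ± 0.09 in the deletion strain. FPKM are relative to all mapped fragments of a library, so a rise in FPKM and a rise in RNA per cell cannot be told apart.

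The listed genes that were higher in the deletion strain gained 94115 FPKM in all, and the 162 made 24016 FPKM, or 25.5%, of that gain. The gain was concentrated in few genes. MYCTH_109510 alone carried 14.4% of what the 162 gained, the 10 genes with the largest gains carried 46.4%, and the first 12 reached 50%. The 16 near-silent genes carried 0.45%.

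**Figure D1:**
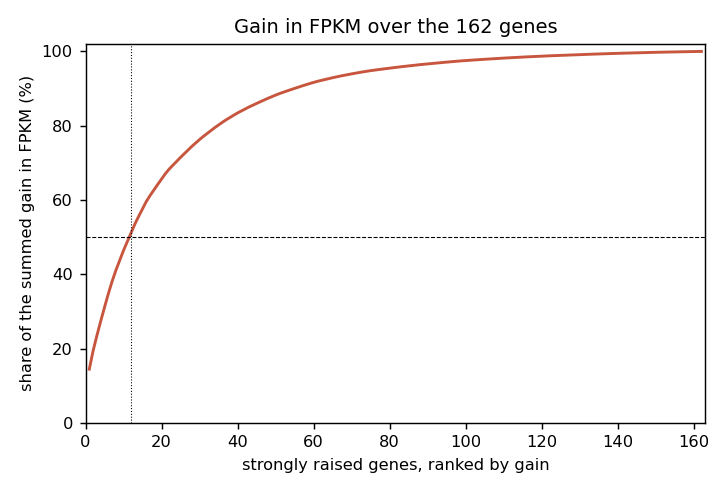
Cumulative share of the summed gain in FPKM (deletion mean minus wild-type mean, vertical axis, %) over the 162 strongly raised genes ranked by gain (horizontal axis). The curve passes the dashed line at 50% with the 12th gene (dotted line), and the first gene alone holds 14.4%.

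Deletion means ran from 5.01 to 3639 FPKM with a median of 36.0. In the deletion strain 53 of the genes stood at 100 FPKM or more and 5 at 1000 FPKM or more, against 11 and 0 in the wild type. By level among the 2228 listed genes their median rank moved from 1619 in the wild type to 684 in the deletion strain. None of the 162 was among the 100 most abundant listed genes of the wild type, and 22 were among the 100 of the deletion strain.

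The ratio of mean FPKM, deletion over wild type, had a median of 5.71 and quartiles of 4.55 and 7.47. A ratio of at least 5 was reached by 107 genes, while 37 lay between the limit of 4 and 4.5. A ratio of at least 8 was reached by 35 genes, of at least 10 by 20 and of at least 20 by 6. By wild-type level, median ratios of the expressed genes were 5.28 for 61 genes at 1 to 5 FPKM in the wild type, 5.48 for 37 genes at 5 to 20 FPKM, 5.39 for 37 genes at 20 to 100 FPKM and 5.87 for 11 genes above 100 FPKM. The largest ratios in these 4 ranges were 44.9, 19.9, 37.7 and 21.3.

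**Figure D2:**
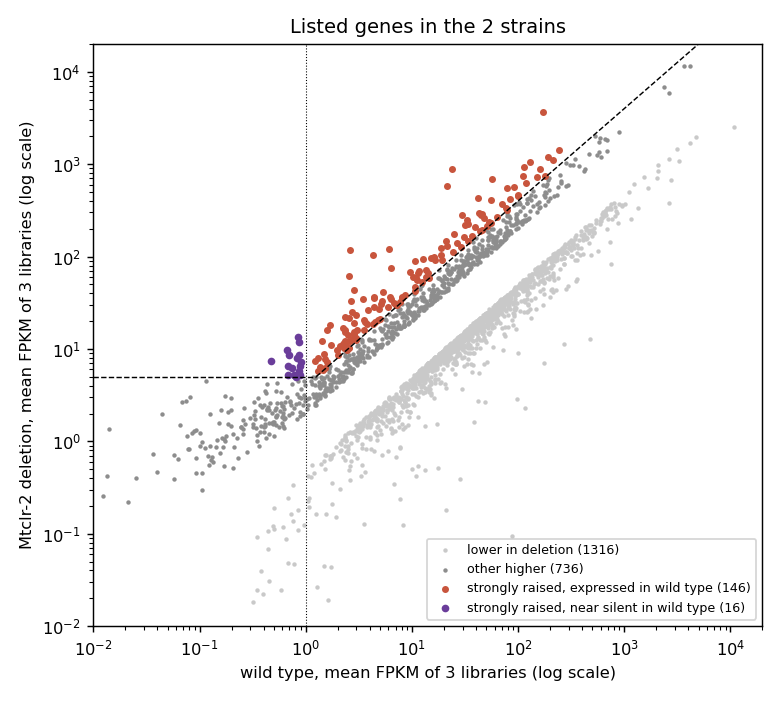
Mean FPKM of each listed gene over 3 libraries, with the wild type on the horizontal and the Mtclr-2 deletion strain on the vertical axis (both log scales). Dashed lines mark the rule (5 FPKM and 4-fold), the dotted line marks 1 FPKM in the wild type, and genes with a mean of 0 in a strain are not drawn. The 146 expressed genes lie above the 4-fold line, at ratios of 4.02 to 44.9. The 16 near-silent genes sit in the corner between 5.01 and 13.4 FPKM.

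In every one of the 162 genes the lowest deletion library lay above the highest wild-type library. The same held for 40.3% of all 2228 listed genes, and the rule that chose the 162 used these values, so nothing is read from the count. The lowest deletion value was at least 3 times the highest wild-type value in 158 of the genes. In the limma fit over the whole table the 162 had log2 changes of 1.49 to 5.18 with a median of 2.27 on the log2(FPKM + 1) scale, against a median of -0.99 over the 2106 genes tested. All 162 were higher at an adjusted p under 0.05 in that fit, where 39.3% of the tested genes were, and this too follows from how they were chosen.

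Of the expressed genes, 5 passed 1000 FPKM in the deletion strain, and MYCTH_109510 was the highest by a wide margin. It stood at 164, 171 and 179 FPKM in the wild-type libraries and at 3652, 3613 and 3653 FPKM in the deletion libraries. Its mean rose from 171 ± 7.74 to 3639 ± 22.8 FPKM, 21.3-fold, which took it from rank 238 to rank 5 of the listed genes. No other gene among the 162 combined a ratio above 20 with a level above 1000 FPKM.

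MYCTH_110532 stood at 244, 243 and 244 FPKM in the wild type and at 1421, 1401 and 1477 FPKM in the deletion strain, 5.87-fold higher. MYCTH_60294 went from 185, 194 and 199 FPKM to 1201, 1228 and 1120 FPKM, 6.14-fold. For MYCTH_2301710 the wild-type libraries gave 205, 213 and 222 FPKM and the deletion libraries 1077, 1035 and 1219 FPKM, 5.20-fold, with deletion library 3 above the other 2. These 3 were among the most abundant of the 162 in both strains, and none has a listed neighbour on either side except MYCTH_2301710, whose neighbour MYCTH_92725 was listed at 0 in the wild type and at 1.81 ± 0.49 FPKM in the deletion strain.

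MYCTH_2315557 read 129, 128 and 129 FPKM in the wild type and stood at 1066, 1036 and 1067 FPKM in the deletion strain, 8.20-fold higher. MYCTH_110640 rose 8.19-fold from 116, 108 and 114 FPKM to 914, 859 and 994 FPKM. Replicate spread differed between the pair, with a coefficient of variation in the deletion strain of 1.68% for MYCTH_2315557 and 7.37% for MYCTH_110640, while their ratios were nearly equal.

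Among the next genes by level, MYCTH_2303328 had by far the largest ratio. Its wild-type libraries read 23.0, 24.2 and 23.9 FPKM and its deletion libraries 844, 888 and 946 FPKM, 37.7-fold higher, from rank 1040 to rank 34. MYCTH_2314878 went from 59.1, 58.3 and 54.2 FPKM to 694, 681 and 718 FPKM, 12.2-fold. The other 4 of the 12 highest expressed genes started from 112 to 178 FPKM and rose less than 7-fold. MYCTH_2296038 reached 878 ± 17.9 FPKM (5.51-fold), MYCTH_2316580 reached 753 ± 16.4 FPKM (6.73-fold), MYCTH_2313370 reached 751 ± 10.2 FPKM (4.22-fold) and MYCTH_2311774 reached 725 ± 14.3 FPKM (4.79-fold).

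**Figure D3:**
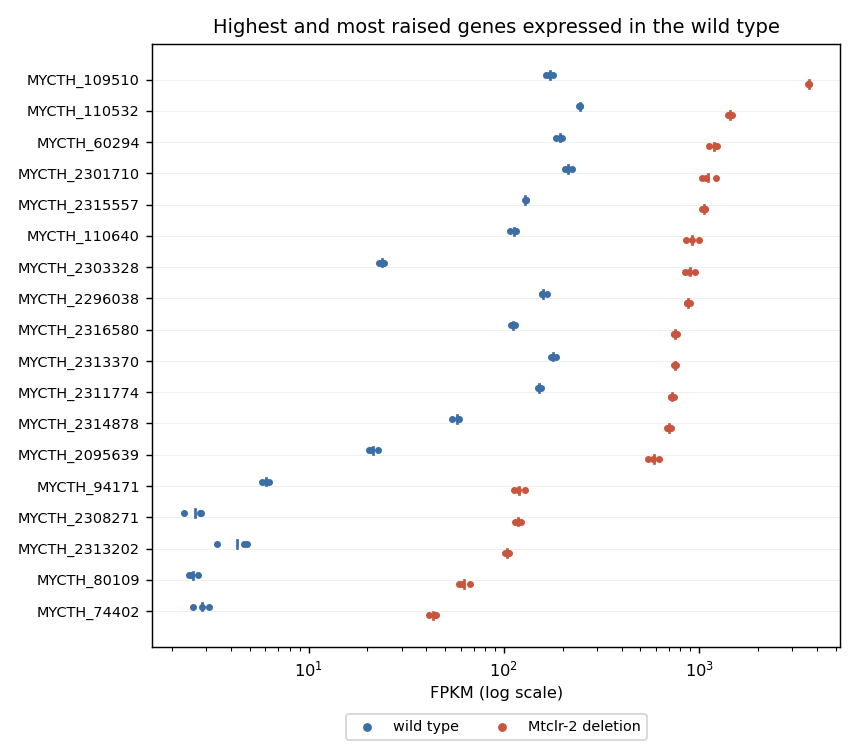
FPKM (log scale) in each library for the 12 expressed genes with the highest deletion mean and the 8 with the largest ratio (18 genes, since 2 are in both), ordered by deletion mean. Points are libraries and short bars are means of 3. The strains are apart in every row, and the distance between them is widest for MYCTH_2308271 and MYCTH_2303328.

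By ratio the order was different. MYCTH_2308271 had the largest, at 2.29, 2.77 and 2.82 FPKM in the wild type and 118, 114 and 122 FPKM in the deletion strain, a mean of 118 ± 3.99 against 2.63 ± 0.29 FPKM and a 44.9-fold difference. Its wild-type level is above the limit for near silence, and an estimated 107 fragments over 3 libraries stand behind it. MYCTH_2095639 rose 27.5-fold from 22.6, 20.4 and 21.0 FPKM to 583, 548 and 625 FPKM.

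MYCTH_80109, MYCTH_2313202 and MYCTH_94171 had ratios near 20 or above and began under 7 FPKM. MYCTH_80109 read 2.73, 2.43 and 2.49 FPKM in the wild type and 60.9, 58.6 and 67.0 FPKM in the deletion strain, 24.4-fold higher. MYCTH_2313202 read 4.81, 4.66 and 3.40 FPKM and then 101, 106 and 105 FPKM, 24.2-fold, with wild-type library 3 below the other 2. MYCTH_94171 read 5.77, 6.27 and 6.05 FPKM and then 118, 128 and 113 FPKM, 19.9-fold. MYCTH_74402, eighth by ratio, went from 2.84 ± 0.28 to 43.5 ± 2.04 FPKM, 15.3-fold. None of these 8 genes has a strongly raised gene as its direct neighbour.

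The 16 genes near silent in the wild type reached only low levels in the deletion strain, 5.01 to 13.4 FPKM with a median of 6.90. Their ratios ran from 5.95 to 16.05 with a median of 8.99. A gene under 1 FPKM in one strain and at 5 FPKM or more in the other has a ratio above 5 by construction, so this median is not to be set against the 5.41 of the expressed genes. None was silent in the strict sense, since all 162 genes had values above 0 in every library. In the wild type an estimated 16 to 117 fragments over 3 libraries stood behind each of the 16, an upper estimate for genes with introns, and in 8 of them at least 1 library was above 1 FPKM. The 7 listed genes at 0 in all wild-type libraries did not enter the set, because their deletion means were at most 1.84 FPKM.

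MYCTH_84377 was the highest of the 16, at 0.769, 0.914 and 0.826 FPKM in the wild type and 14.7, 12.2 and 13.3 FPKM in the deletion strain. Its 16.05-fold difference was the largest ratio among them, with a counting interval of 12.7 to 20.8-fold (95%, exact, from estimated fragments and covering counting error only). MYCTH_2314077 read 0.834, 0.744 and 1.01 FPKM and then 13.2, 10.9 and 11.3 FPKM, 13.7-fold higher with an interval of 9.51 to 20.5-fold. In both genes the wild-type libraries lay close together, and these were the 2 near-silent genes above 10 FPKM in the deletion strain.

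Several of the others varied more in the wild type. MYCTH_2313034 had the lowest wild-type mean of the 162, from 0.225, 0.702 and 0.472 FPKM, and stood at 6.27, 6.73 and 8.95 FPKM in the deletion strain. An estimated 16 fragments carry that wild-type mean, and its 15.7-fold ratio has an interval of 9.20 to 27.1-fold. MYCTH_41142 read 0.234, 0.764 and 0.982 FPKM and then 7.58, 10.7 and 10.8 FPKM, 14.7-fold with an interval of 10.02 to 19.8-fold. In both genes wild-type library 1 was the lowest of all 6 values by more than 2-fold.

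MYCTH_2308269 was steady in the deletion strain, at 8.59, 8.77 and 8.63 FPKM, and spread in the wild type, at 0.838, 0.388 and 0.873 FPKM, 12.4-fold lower. MYCTH_44230 read 1.01, 0.377 and 1.21 FPKM and then 7.88, 7.49 and 10.6 FPKM, 10-fold. MYCTH_2300715 read 0.359, 1.09 and 1.03 FPKM and then 8.81, 8.21 and 6.997 FPKM, 9.67-fold. The remaining 9 near-silent genes reached 5.01 to 7.22 FPKM, among them MYCTH_2305882, at 0.899 ± 0.265 and 7.22 ± 1.03 FPKM.

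**Figure D4:**
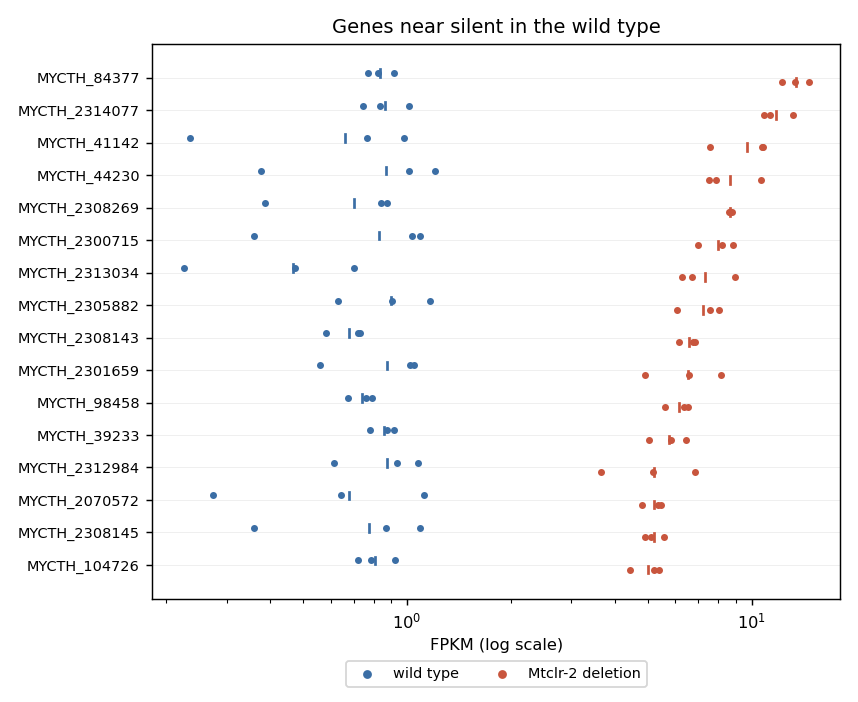
FPKM (log scale) in each library for the 16 genes near silent in the wild type, ordered by deletion mean. Points are libraries and short bars are means of 3; wild-type values run up to 1.21 FPKM, and the strains are apart in every row.

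Replicate spread followed level. Near-silent genes had a median coefficient of variation of 30.4% (wild type) and 11.0% (deletion strain), against 8.17% and 4.91% for the expressed genes. It fell to 3.18% and 2.18% for the 11 genes above 100 FPKM in the wild type. A coefficient above 20% was found for 37 of the 162 genes in the wild type and for 9 in the deletion strain. Deletion library 3 was the highest of its strain in 70 of the 162 genes, library 2 in 55 and library 1 in 37. In the wild type, libraries 1 to 3 were the highest in 52, 49 and 61 genes. No such counts over all listed genes are given here, so nothing particular to the 162 is read from them. The summed FPKM of all listed genes was also highest in library 3 of each strain. It was 197362, 196829 and 200543 in deletion libraries 1 to 3 and 202298, 202524 and 204264 in the wild type. Median deviations from the strain mean were small, -0.004 to 0.006 on the log2(FPKM + 1) scale.

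In 3 genes, named after their values were seen, the ratio moved by over 1.5 times when 1 library was left out. MYCTH_2298544 read 0.835, 1.07 and 3.12 FPKM in the wild type and 18.1, 15.8 and 20.3 FPKM in the deletion strain. Its ratio of 10.8 became 18.9 without wild-type library 3, and its wild-type mean then fell below 1 FPKM. MYCTH_2310208 went from a ratio of 6.13 to 9.27 without wild-type library 1, with a wild-type mean that likewise fell below 1 FPKM. By RefSeq ends MYCTH_2310208 overlaps MYCTH_2310212, which is not listed, so reads of these genes cannot be told apart. The third, MYCTH_2045420, read 2.12, 3.26 and 1.94 FPKM in the wild type and 4.32, 8.42 and 16.6 FPKM in the deletion strain, and its ratio of 4.02 fell to 2.61 without deletion library 3. It was also the gene closest to overlap, its lowest deletion value being 1.33 times its highest wild-type value. Leaving out each of the 6 libraries in turn kept 147 of the 162 genes every time. Of the 15 lost in at least 1 case, 2 were near silent, MYCTH_104726 and MYCTH_2312984, and both dropped below 5 FPKM while their ratios stayed above 5. The other 13 had ratios of at most 4.46 with all libraries.

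At the ratio limit, MYCTH_2045420 at 4.02 and MYCTH_2295904 at 4.03 were just inside, and MYCTH_113450 at 3.98 and MYCTH_2308157 at 3.98 were just outside. MYCTH_2308157 stood at 310 FPKM in the deletion strain. At the level limit, MYCTH_104726 at 5.01 FPKM and MYCTH_2308145 at 5.19 FPKM were just inside, and MYCTH_2295331 at 4.92 FPKM and MYCTH_2304795 at 4.55 FPKM just outside. Beside the 37 of the 162 with a ratio under 4.5, 43 further genes at 5 FPKM or more had ratios of 3.5 to 4. No gap separates the strongly raised genes from the rest of the table at that limit. Between the 2 classes, the highest wild-type mean of a near-silent gene was 0.899 FPKM, at MYCTH_2305882, and the lowest of an expressed gene was 1.21 FPKM, at MYCTH_2296643.

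The RefSeq gene order was not used by the rule. Of the 162 genes, 81 (50%) had a direct neighbour that was also higher in the deletion strain, against 36.7% of the other 743 higher genes and 11.4% of the 1323 lower genes. A strongly raised direct neighbour was found for 35 (21.6%) of the 162, for 7.40% of the other higher genes and for 1.81% of the lower genes. A lower direct neighbour was found for 24 (14.8%), against 17.4% and 39.3%. Over all 2228 listed genes, the 162 included, 22.7% had a higher, 5.12% a strongly raised and 30.2% a lower direct neighbour. These shares are descriptions, with no test. Among the 16 near-silent genes 7 had a strongly raised neighbour, and among the 146 expressed genes 28 did.

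The 35 genes form 16 runs of consecutive genes, 1 of 4 genes, 1 of 3 and 14 pairs, which make 19 adjacent pairs. In 2 of the 19 pairs the genes overlap by their RefSeq ends. The counting is not stated to use strand, so reads from overlapping genes cannot be told apart there. Levels within a pair could differ widely. The higher gene of a pair stood a median of 2.12 times above the lower one in the deletion strain, at least 5 times in 5 pairs and up to 59.9 times. The 2 ratios of a pair differed by a median factor of 1.26. The rule set a floor of 4 for every ratio and other pairs were not compared, so nothing is read from this factor.

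The run of 4 joins a near-silent gene, 2 abundant genes and a low one. MYCTH_2305882 was followed by MYCTH_2305886, which read 42.6, 43.2 and 41.1 FPKM in the wild type and 439, 431 and 427 FPKM in the deletion strain, 10.2-fold. MYCTH_2305890 came next, with 44.3, 42.2 and 46.6 FPKM and then 278, 282 and 285 FPKM, 6.35-fold. MYCTH_2305891 closed the run at 2.23 ± 0.17 and 11.3 ± 2.37 FPKM, 5.04-fold. MYCTH_2305882 overlaps MYCTH_2305886 by RefSeq ends and stood 59.9 times below it in the deletion strain, so its rise cannot be told apart from reads of its neighbour. The gene before the run, MYCTH_2305878, was higher as well, at 3.13 ± 0.50 and 9.26 ± 0.81 FPKM, 2.96-fold, and the gene after it was not listed.

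In the run of 3, the near-silent genes MYCTH_44230 and MYCTH_41142 lie beside MYCTH_2297305, which went from 96.6, 99.8 and 99.7 FPKM to 469, 467 and 445 FPKM, 4.67-fold. The near-silent genes rose 10-fold and 14.7-fold, and the abundant gene gained the larger amount of FPKM. The rule itself gives near-silent genes high ratios, so these factors are not set against that of the abundant gene. None of the 3 overlaps another gene by RefSeq ends, and no gene within 4 places on either side was listed.

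Of the pairs, MYCTH_66783 and MYCTH_2305652 were the most abundant. MYCTH_66783 read 91.4, 91.3 and 91.1 FPKM and then 584, 598 and 515 FPKM, 6.20-fold. MYCTH_2305652 read 51.9, 59.0 and 54.8 FPKM and then 408, 414 and 396 FPKM, 7.35-fold. The following 2 genes were also higher, MYCTH_2315403 by 2.09-fold and MYCTH_2305657 by 2.57-fold. MYCTH_2295817 and MYCTH_2295820 had like ratios, 4.21 and 4.10, at unlike levels, 213 ± 1.81 and 6.19 ± 1.93 FPKM in the deletion strain, and without wild-type library 3 the ratio of MYCTH_2295820 was 3.55.

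Chosen after their values were seen, 2 wider groups hold the genes with the largest ratios. MYCTH_2308271, at 44.9-fold, lies 2 places after the near-silent MYCTH_2308269 and 3 after MYCTH_71063, which went from 8.66 ± 0.79 to 38.1 ± 2.81 FPKM, 4.40-fold. The next 2 genes went the other way, MYCTH_2308272 from 10.9 ± 0.84 to 4.65 ± 0.41 FPKM and MYCTH_2067533 from 9.26 ± 2.60 to 2.45 ± 0.60 FPKM. MYCTH_2303328, at 37.7-fold, is followed within 5 places by MYCTH_2303335, from 6.39 ± 0.94 to 74.5 ± 1.94 FPKM, and MYCTH_107866, from 9.62 ± 1.005 to 68.2 ± 5.21 FPKM. Its other neighbour, MYCTH_50335, fell 2.63-fold from 952 ± 17.1 to 362 ± 14.3 FPKM.

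**Figure D5:**
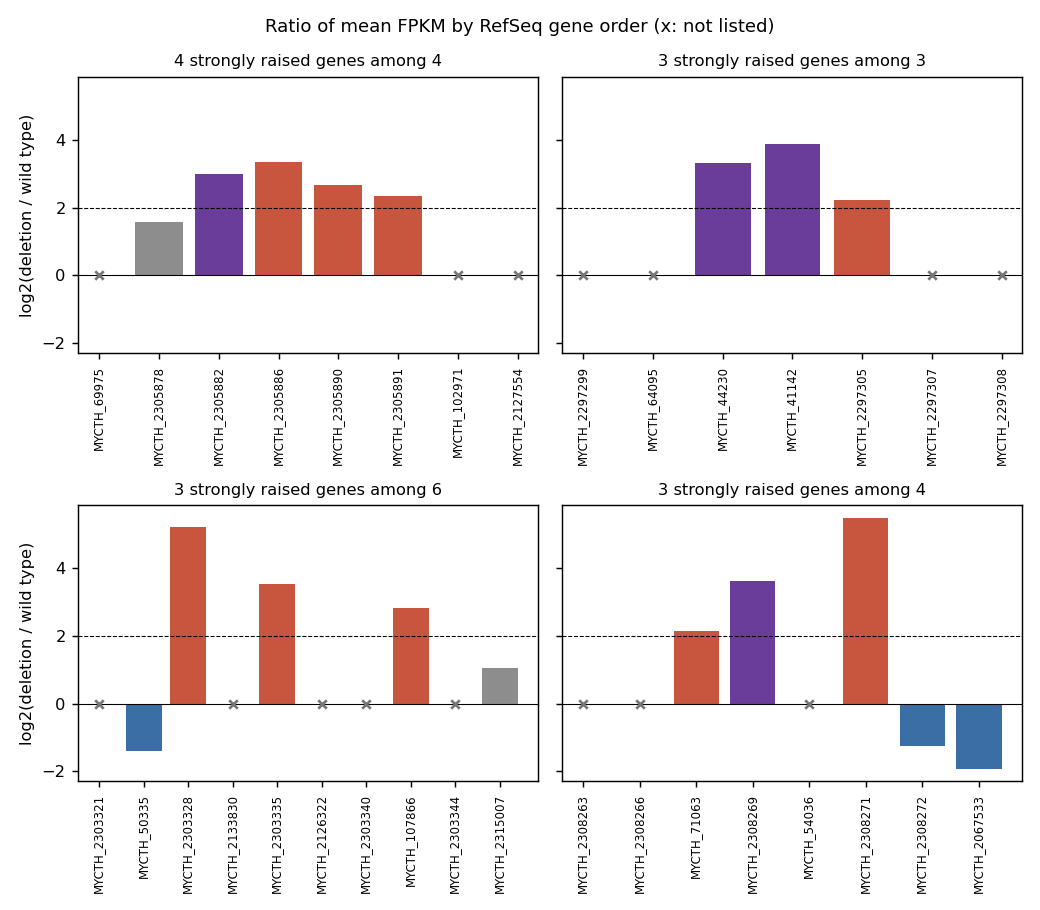
log2 of the ratio of mean FPKM, deletion over wild type (vertical axis), for consecutive genes in the RefSeq order around the 4 places where at least 3 strongly raised genes lie with at most 2 genes between. Purple bars are near-silent and red bars expressed strongly raised genes, grey bars other higher genes, blue bars lower genes, crosses genes that are not listed, and the dashed line marks 4-fold. Bars of opposite direction stand side by side at MYCTH_2308271 and at MYCTH_2303328.

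Of the 12 expressed genes with the highest deletion mean, 4 had a listed direct neighbour and 0 had a strongly raised one. Over all 162, 61 had no listed direct neighbour. A listed direct neighbour was found for 62.3% of the 162, against 49.9% of all listed genes. This difference was not tested, the 49.9% includes the 162, and 35 of them are direct neighbours of each other. The 12 are too few to be set apart from either share. The reverse rule, a wild-type mean of at least 5 FPKM and at least 4 times the deletion mean, took 112 genes on the FPKM as deposited. How many genes count as raised depends on the scaling. With median-of-ratios factors the rule took 726 genes in place of 162, and no count by the reverse rule is given with them. These factors moved the median log2 change of all genes by 0.96. Every higher gene was already at least 2-fold up as deposited, so the larger count largely follows from that selection. In the limma fit, a different measure, higher calls went from 827 to 848 and lower calls from 1279 to 702.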

How the data were processed

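The values are FPKM per gene as deposited by the authors, 1 column per library, matched to samples by library name; replicates were not pooled. Per the labels' protocols, mRNA was enriched on oligo(dT) beads before library preparation (NEBNext Ultra RNA). The submitters' processing notes name HISAT2, RSEM, DESeq2, StringTie 1.3.1 and fastp 0.18.0. The sources used here do not give the settings or the build, and no coordinates are printed. All 2228 IDs matched RefSeq ASM22609v1, 2226 by locus tag and 2 by symbol. Promoter and protein patterns planned for the genes were not analysed here.

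The 162 genes, the lists and the settings were chosen with earlier results of these data known. The genes named are the 12 expressed genes with the highest deletion mean, the 8 with the largest ratio, the 8 near-silent genes with the highest deletion mean, the 4 longest runs of neighbours (ties broken by summed deletion FPKM, a choice made after the data were seen) and the genes at each limit; others are said to be chosen later.

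The limma fit (limma 3.58.1, R 4.3.3) used log2(FPKM + 1) with a variance trend, two-sided. Benjamini-Hochberg adjustment was over the 2106 genes averaging 1 FPKM or more over all libraries. The fit was also run on simulated data in which most genes were unchanged. All tested genes were called here, so nothing about these calls is read from that run. Fold changes in the text are ratios of mean FPKM unless a log2 scale is named. Neighbours are protein-coding genes in RefSeq order. Depth was sought from 10 to 25 M fragments as the step on which most products of FPKM and gene length under 0.5 fell, within 1% of 1 to 4 steps: 35 of 94, 26 of 79 and 21 of 90 values in the wild type and 12 of 53, 10 of 46 and 13 of 43 in the deletion strain did. Other computing was done in Python 3.11.15 with scipy 1.17.1, pandas 2.3.3, numpy 2.4.6 and matplotlib 3.10.9.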

Additional observations from a re-analysis of the deposited data

How the results depend on the processing

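The number of strongly raised genes, 162, was 161 to 167 without 1 library, with 14 to 17 near silent and 145 to 151 expressed, and 163 by group medians. The limits themselves moved it. A minimum ratio of 3 gave 287 genes (271 expressed) and of 5 gave 107 (91 expressed). A minimum deletion mean of 2 FPKM gave 56 near-silent genes, of 10 FPKM 2, and no minimum 123 near-silent among 271 genes. A limit for near silence of 0.5 FPKM left 1 such gene and of 2 FPKM gave 30. Median-of-ratios factors came to 1.42 to 1.44 in the wild type and 0.7 to 0.72 in the deletion strain and gave 726 genes, 45 near silent and 681 expressed. Such factors take the median of genes that all differ as unchanged, and they moved the median log2 change of all genes by 0.96. With them 848 genes were called higher and 702 lower, so 54.7% were higher. As deposited all 2106 tested genes were called, 827 higher and 1279 lower, 39.3% higher. The difference in the share of the table's FPKM, 12.2 percentage points, was 12.13 to 12.21 without 1 library and 13.9 without the 10 most abundant listed genes. Adjacent pairs numbered 19, 27 with at most 1 gene between, and 15 without the 10 genes that overlap another gene, an alternative chosen after seeing the data. In the limma fit 827 listed genes were higher, 807 to 838 without 1 library. The replicate block gave 827 higher genes and 162 of the strongly raised ones and changed no call. Same-numbered libraries of the strains deviated together with correlations of 0.00, 0.03 and 0.08, and differently numbered ones with -0.06 to 0.04. Whether same-numbered libraries were handled together was not tested. The 41 named genes gave 481 values under alternatives, all of the same direction and side of the threshold, which their selection largely set, and 11 were not to be had because the genes fell below a filter. Alternatives on promoter and protein patterns were not run. Depth limits the near-silent genes most, with 2 to 48 estimated fragments per wild-type library.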

Other observations

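Genes that lie directly beside the strongly raised ones did not all follow them. The 162 genes have 313 distinct direct neighbours in the RefSeq order, of which 199 are not listed, 35 are strongly raised themselves, 55 are other higher genes with a median ratio of 3.11, and 24 are lower in the deletion strain, by 2.02-fold to 6.05-fold with a median of 2.63-fold. The genes in this section were chosen after their values were seen. The largest fall among them was at MYCTH_97365, from 132 ± 3.43 to 21.9 ± 2.77 FPKM (SD, n = 3), beside MYCTH_39133, which rose 7.73-fold to 41.3 FPKM. MYCTH_2313117 fell 5.08-fold, from 74.2 ± 1.12 to 14.6 ± 1.47 FPKM, beside MYCTH_84377, the highest of the near-silent genes, so that the neighbours reached like levels in the deletion strain from levels far apart in the wild type. MYCTH_2310462 fell 2.64-fold from 829 ± 6.99 FPKM beside MYCTH_2310464, which rose 5.84-fold to 65.9 FPKM.

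Some neighbours rose at levels too low for the rule. MYCTH_103794, beside MYCTH_2045420, went from 0.014 ± 0.024 to 1.37 ± 0.11 FPKM, and MYCTH_2313032, beside MYCTH_2313034, from 0.411 ± 0.027 to 3.55 ± 1.40 FPKM. In all, 109 listed genes had a deletion mean of at least 4 times the wild-type mean, or a wild-type mean of 0, and stayed under 5 FPKM.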
